A study of Mus musculus with 11 samples.

Results

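The 35 genes described here encode the mitochondrial tricarboxylic acid (TCA) cycle, with pyruvate carboxylase that feeds it (18 genes), and the carnitine shuttle, beta-oxidation enzymes and electron carriers of mitochondrial fatty acid oxidation (17 genes). They were taken by symbol from a list, out of 55421 genes counted in each library. That list was chosen with earlier results of these data known. RNA was measured in articular cartilage of 11 knees from C57BL/6 mice aged 14 weeks, 4 weeks after DMM (destabilization of the medial meniscus, a surgical model of osteoarthritis). The 4 contralateral libraries come from the unoperated knees of c-FosWT mice, the 3 c-FosWT DMM libraries from operated knees of that genotype, and the 4 c-FosDCh DMM libraries from operated knees of 4 c-FosDCh mice. In the labels 2 of these 4 carry the number 1, so they are numbered here in accession order: replicates 1 and 2 are both labelled 1, replicate 3 is labelled 2 and replicate 4 is labelled 3. Contralateral knees of c-FosDCh mice were not analysed here. In 3 c-FosWT animals both knees were measured. The labels name no promoter or Cre line behind c-FosDCh, and they do not say which part of Fos it alters. The cartilage was dissected with a scalpel, and the labels do not say that other tissues of the joint were removed.

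The TCA cycle oxidises acetyl-CoA in the mitochondrial matrix and passes the electrons to the respiratory chain as NADH and FADH2. Long-chain fatty acids reach the matrix as carnitine esters and are shortened by repeated turns of dehydrogenation, hydration, dehydrogenation and thiolysis, each of which yields acetyl-CoA for the cycle. Articular chondrocytes sit in a tissue with no blood vessels and little oxygen and draw much of their ATP from glycolysis, whereas muscle and developing blood cells are rich in mitochondria.

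The promoters of 4 members named in the results are shown first, with the half-site AGGTCA marked. Nuclear receptors such as the PPARs and the estrogen-related receptors, known activators of oxidative genes, bind elements built on this half-site. RefSeq promoters (build GRCm38.p6, 300-base windows) were matched for 31 members. The letters AGGTCA, on either strand, lay in a window of 11 of these 31 genes, in 18.1% of all 27025 genes with a window and in 16.3% of all 32851 windows. The longer element TCAAGGTCA, which contains AGGTCA, occurred in a window of Sdhd alone among them, in 0.466% of all genes and in 0.423% of all windows. GGGCGG on either strand, the GC box, was present in 23 of 31, in 38.2% of all genes and in 35.7% of all windows. Printed below, 5′ to 3′ on the gene's own strand, is exon-free sequence from just before the RefSeq start of 4 genes: Fh1 (chr1:175625636-175625885, minus strand), Cpt1a (chr19:3323051-3323284, plus strand), Acadvl (chr11:70015429-70015678, minus strand) and Acadl (chr1:66863310-66863559, minus strand). For Cpt1a the stretch lies within the gene as GENCODE annotates it, downstream of an earlier start. Capitals mark AGGTCA or its reverse complement TGACCT. They are shown because Fh1, Cpt1a and Acadl were lower in c-FosDCh DMM libraries, and because Acadl and Acadvl, which share a reaction, moved in opposite directions with marrow markers.
Fh1: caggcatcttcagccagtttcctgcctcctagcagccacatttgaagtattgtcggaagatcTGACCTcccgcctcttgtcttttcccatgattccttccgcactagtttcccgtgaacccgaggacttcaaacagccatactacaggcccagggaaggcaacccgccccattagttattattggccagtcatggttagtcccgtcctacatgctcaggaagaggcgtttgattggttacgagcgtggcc
Cpt1a: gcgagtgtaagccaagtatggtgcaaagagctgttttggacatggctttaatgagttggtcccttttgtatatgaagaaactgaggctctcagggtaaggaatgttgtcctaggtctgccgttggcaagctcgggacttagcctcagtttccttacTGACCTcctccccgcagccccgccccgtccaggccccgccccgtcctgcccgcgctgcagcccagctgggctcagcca
Acadvl: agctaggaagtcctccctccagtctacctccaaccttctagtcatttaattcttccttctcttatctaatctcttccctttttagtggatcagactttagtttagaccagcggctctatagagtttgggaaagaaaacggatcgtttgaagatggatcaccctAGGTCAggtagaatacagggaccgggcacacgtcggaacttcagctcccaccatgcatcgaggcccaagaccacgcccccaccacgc
Acadl: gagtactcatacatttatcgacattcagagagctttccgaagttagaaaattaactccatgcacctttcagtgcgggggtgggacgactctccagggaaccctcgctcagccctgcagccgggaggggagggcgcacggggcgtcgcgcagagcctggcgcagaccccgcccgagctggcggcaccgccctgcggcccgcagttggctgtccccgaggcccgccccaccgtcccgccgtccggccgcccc
The printed stretches of Fh1, Cpt1a and Acadvl hold 1 such match each, and that of Acadl holds none. Of the members lower in c-FosDCh DMM libraries, 7 had a matched promoter. AGGTCA lay in a window of 3 of these 7 (Sdhd, Fh1 and Cpt1a) and not in those of Cs, Dlst, Mdh2 and Acadl. A match describes letters in the window, not binding.

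Hadha and Hadhb, the 2 subunits of the mitochondrial trifunctional protein, lie head to head with 85 bases between their starts (chr5:30155163-30155247, plus strand). That gap is shown because both genes start at its edges; capitals mark its 2 copies of GGGCGG.
Hadha-Hadhb gap: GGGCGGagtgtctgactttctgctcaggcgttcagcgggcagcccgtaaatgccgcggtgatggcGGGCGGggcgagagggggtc

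Gene counts per library ranged from 13593454 to 18280558, and all 35 members passed the filter on low counts. Values are CPM, gene counts scaled to a common TMM-adjusted library total, and group values are mean ± SD. Replicates are different animals within a group, and p-values measure the spread between these samples. Fos stood at 23.2 ± 10.01 CPM in c-FosDCh DMM (n = 4), 11.7 ± 2.58 CPM in c-FosWT DMM (n = 3) and 19.9 ± 4.25 CPM in contralateral libraries (n = 4); it was thus no lower in c-FosDCh DMM than in c-FosWT DMM cartilage, and since the altered part of Fos is not stated its counts do not check the genotype labels. The cartilage markers were present throughout: 19 genes summed to 22955 to 44305 CPM in contralateral, 6998 to 18944 CPM in c-FosWT DMM and 23984 to 89485 CPM in c-FosDCh DMM libraries, Prg4, Col2a1 and Chad being the most abundant. Markers of other tissues were present too, with none at 0 in all libraries. The 20 skeletal muscle markers (Ttn, Atp2a1 and Myh4 the most abundant) summed to 172 to 17886, 654 to 28066 and 263 to 5533 CPM in the same order of groups, with contralateral replicate 2 and c-FosWT DMM replicate 1 far above the rest. The erythroid markers (14 of 15 tested; Hbb-bs, Hbb-bt and Slc4a1 the most abundant) summed to 2421 to 7241, 8392 to 13869 and 559 to 4752 CPM, and the 15 granulocyte markers (Ngp, Ltf and S100a9) to 3471 to 11043, 8217 to 15387 and 345 to 12073 CPM. c-FosDCh DMM replicates 3 and 4 stood apart. They were the 2 lowest libraries for the mean log2 level of erythroid, granulocyte, adipocyte, macrophage, endothelial, osteoclast, fibroblast and B cell markers. Their cartilage marker sums, 72921.5 and 89485 CPM, were the 2 highest of all libraries. The next highest was 44305 CPM in contralateral replicate 3. In bulk RNA, fewer cells of a type and less RNA per cell cannot be told apart.

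Per kilobase of transcript (the longest principal transcript, less bases shared with other genes), TCA cycle genes held the top 10 places in contralateral cartilage. Mdh2, the mitochondrial malate dehydrogenase, was highest at 53.0 ± 5.16 CPM per kilobase (n = 4), followed by Ogdh at 47.0 ± 4.50 and Sdha at 45.7 ± 4.57. These 3 do not differ from their neighbours in that order beyond their SDs. The first fatty acid oxidation gene was Etfa, the alpha subunit of the electron transfer flavoprotein, at 30.1 ± 1.90. The outer membrane carnitine palmitoyltransferase Cpt1a stood at 17.1 ± 1.81 and its matrix partner Cpt2 at 6.72 ± 0.562. Suclg2, the GTP-forming succinyl-CoA ligase beta subunit, was next to last at 4.03 ± 0.289, against 16.5 ± 2.601 for Sucla2, the ATP-forming counterpart. Cpt1b, the muscle isoform of the carnitine palmitoyltransferase, came last at 3.55 ± 1.81 over the 151 unshared bases of a 2895-base transcript. Its reads were counted over all exons of the gene, so this value can be too high. Of the 3372 exon bases of the whole Cpt1b gene, 2744 are shared on the same strand with the gene model Gm44502. Few reads could therefore count for Cpt1b alone. For Etfb, 678 exon bases are shared in the same way with Gm45233 and Mir7051, and 1151 exon bases of Acadvl lie opposite exons of Dvl2. Summed over the list, TCA cycle genes held 1164 ± 76.8 CPM in contralateral (n = 4), 1375 ± 90.3 CPM in c-FosWT DMM (n = 3) and 1073 ± 107 CPM in c-FosDCh DMM libraries (n = 4). Fatty acid oxidation genes held 575 ± 28.6, 626 ± 38.6 and 524 ± 38.2 CPM.

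**Figure D1:**
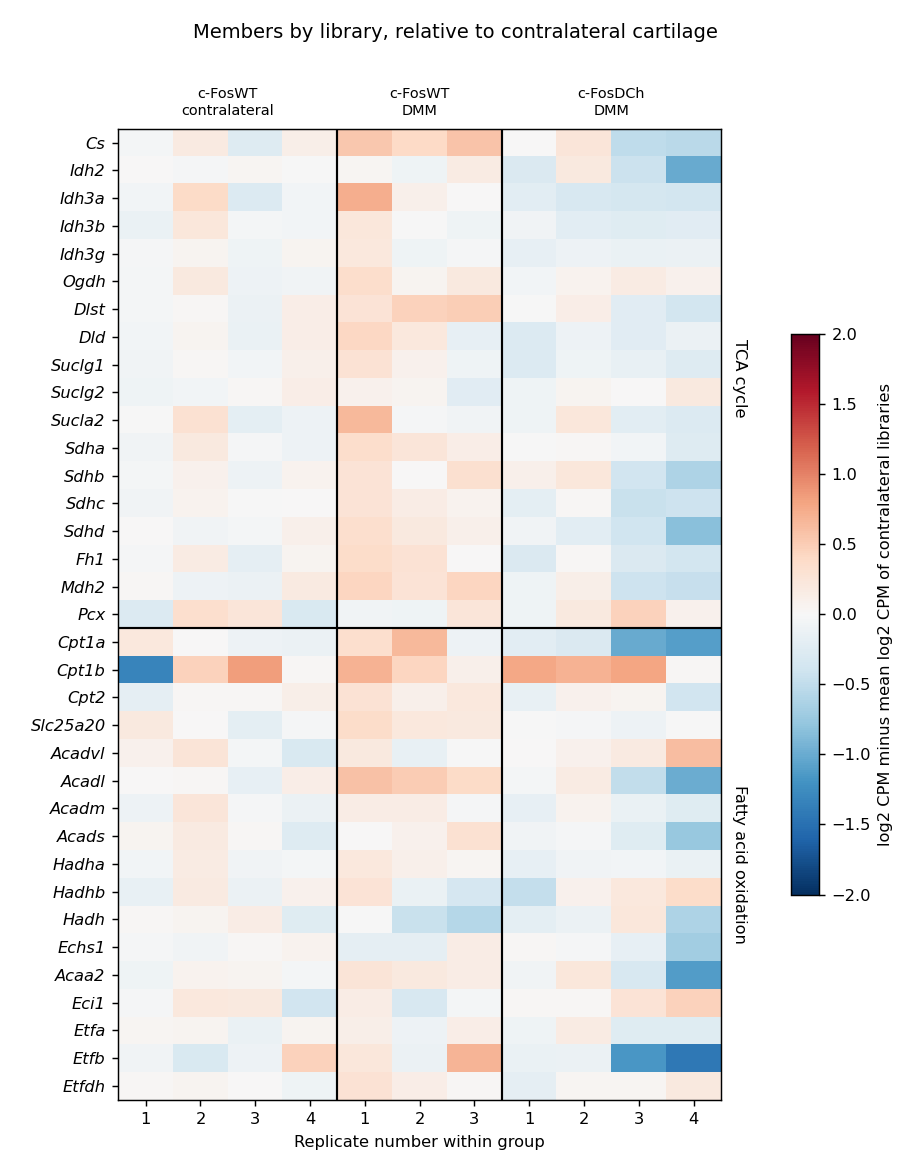
Each of the 35 members (rows) in each of the 11 libraries (columns), coloured by log2 CPM minus the mean log2 CPM of the 4 contralateral libraries. Between c-FosWT DMM and contralateral libraries 17 of 18 TCA cycle rows had a fold change above 0, with overlapping groups in 14 rows. The c-FosDCh DMM replicate 4 holds the lowest value for 20 members and the highest for 4.

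The operated knees of the 2 genotypes gave the clearest difference. Of the 35 members, 8 were lower in c-FosDCh DMM than in c-FosWT DMM libraries and 0 were higher (edgeR quasi-likelihood test, Benjamini-Hochberg adjusted p under 0.05 over all 18125 genes tested). The 8 were the TCA cycle genes Cs, Dlst, Sdhc, Sdhd, Fh1 and Mdh2 and the fatty acid oxidation genes Cpt1a and Acadl. They fell to between 0.526 (Cpt1a) and 0.752 (Sdhc) times the c-FosWT DMM level. Over all genes tested, 3.79% were lower and 10.6% higher (687 and 1929 genes). With scaling by library totals alone the split over all genes was 981 lower and 1176 higher, and 12 members were lower, with the median of all genes at -0.18. The median log2 fold change was -0.34 over the TCA cycle genes, 16 of 18 of them below 0, and -0.21 over the fatty acid oxidation genes, 12 of 17 below 0; over all genes tested it was -0.0089.

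Citrate synthase (Cs, chr10:128337734-128362479), which condenses acetyl-CoA with oxaloacetate at the entry of the cycle, stood at 105, 123, 90.3 and 117 CPM in contralateral replicates 1 to 4, at 157, 142 and 161 CPM in c-FosWT DMM replicates 1 to 3, and at 109, 128, 76.2 and 74.5 CPM in c-FosDCh DMM replicates 1 to 4; the libraries of every gene below are listed in this order. All 4 c-FosDCh DMM libraries lay below the 3 c-FosWT DMM libraries, replicates 3 and 4 farthest. The log2 fold change between the DMM groups was -0.66 ± 0.19 (SE; edgeR adjusted p = 0.0468). Idh3a, the catalytic subunit of the NAD-dependent isocitrate dehydrogenase, was at 36.0, 48.8, 30.8 and 36.0, at 61.7, 40.0 and 37.5, and at 32.2, 29.9, 29.1 and 29.0 CPM. Its 4 c-FosDCh DMM values were the most tightly grouped of the 3 groups, all below the c-FosWT DMM values, and the fold change of -0.63 ± 0.19 missed the threshold (edgeR adjusted p = 0.0519). Dlst (chr12:85110833-85134845), the succinyltransferase core of the 2-oxoglutarate dehydrogenase complex, was at 115, 120, 109 and 129, at 143, 162 and 166, and at 117, 130, 100.3 and 91.0 CPM. Neither comparison of c-FosWT DMM with the other groups showed overlap, and the log2 fold change between the DMM groups was -0.52 ± 0.13 (edgeR adjusted p = 0.0364). Suclg1, the shared alpha subunit of succinyl-CoA ligase, was at 30.1, 32.2, 30.7 and 34.1, at 38.9, 33.8 and 30.0, and at 26.2, 29.8, 28.5 and 26.6 CPM. Its DMM groups were separate by a narrow margin, and its fold change of -0.30 ± 0.11 did not pass (edgeR adjusted p = 0.0747).

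Succinate dehydrogenase, the step shared by the cycle and the respiratory chain, has 2 catalytic and 2 membrane subunits. The membrane anchors Sdhc (chr1:171127165-171150603) and Sdhd (chr9:50596357-50603812) were both lower. Sdhc was at 40.5, 44.6, 42.1 and 42.8, at 51.4, 46.8 and 44.7, and at 37.0, 43.3, 31.0 and 31.9 CPM. Sdhd was at 42.8, 40.5, 41.7 and 46.0, at 53.7, 48.7 and 45.8, and at 40.7, 36.8, 32.5 and 23.8 CPM. In both genes every c-FosDCh DMM library lay below every c-FosWT DMM library, with fold changes of -0.41 ± 0.12 for Sdhc and -0.56 ± 0.16 for Sdhd (edgeR adjusted p = 0.0484 and 0.0429). The flavoprotein subunit Sdha, at 126, 152, 130 and 123, at 168, 155 and 145, and at 131, 134, 127 and 111 CPM, also had separate DMM groups. Its log2 fold change of -0.31 ± 0.11 did not pass (edgeR adjusted p = 0.0742). The iron-sulphur subunit Sdhb, at -0.34 ± 0.19, had overlapping groups (edgeR adjusted p = 0.195).

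Fumarase (Fh1, chr1:175600374-175625635) was at 34.0, 38.8, 30.5 and 36.2, at 44.6, 42.3 and 34.9, and at 28.4, 35.2, 28.6 and 27.0 CPM. Unlike the other 7 lower members its DMM groups touched, since c-FosDCh DMM replicate 2 lay just above c-FosWT DMM replicate 3; the log2 fold change was -0.45 ± 0.13 (edgeR adjusted p = 0.0478). Mdh2 (chr5:135778480-135790398), which regenerates oxaloacetate, was at 78.1, 71.9, 71.1 and 87.4, at 103, 93.3 and 104, and at 72.6, 82.9, 57.8 and 55.8 CPM. The 3 c-FosWT DMM libraries were above all 8 others, and the log2 fold change between the DMM groups was -0.57 ± 0.15 (edgeR adjusted p = 0.0364). Pyruvate carboxylase (Pcx), which refills oxaloacetate from pyruvate, was not called: its values were 26.4, 40.1, 37.7 and 25.8, then 30.5, 30.1 and 37.9, then 29.9, 36.6, 43.8 and 33.8 CPM. Its groups overlapped widely, with a log2 fold change of 0.13 ± 0.19 (edgeR adjusted p = 0.609), or -0.04 with scaling by library totals.

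In the carnitine shuttle, Cpt1a (chr19:3322334-3385733), the rate-limiting step of mitochondrial fatty acid entry, had the lowest fold change of all 35 members. It was at 84.6, 73.9, 68.1 and 68.0, at 92.6, 115 and 68.3, and at 63.2, 60.0, 36.4 and 34.2 CPM. Every c-FosDCh DMM library lay below all 7 c-FosWT libraries, and replicates 3 and 4 were the lowest of all 11 libraries. The log2 fold change between the DMM groups was -0.93 ± 0.24 (edgeR adjusted p = 0.0389). Cpt1b was at 0.188, 0.643, 0.835 and 0.479, at 0.761, 0.630 and 0.501, and at 0.803, 0.756, 0.813 and 0.477 CPM, too few counts to separate groups (log2 fold change 0.18 ± 0.43, edgeR adjusted p = 0.764). Slc25a20, the carnitine-acylcarnitine carrier of the inner membrane, was at 17.9, 15.8, 13.7 and 15.4, at 20.3, 18.0 and 18.0, and at 15.6, 15.4, 14.5 and 15.5 CPM. Its DMM groups did not overlap, but the fold change of -0.30 ± 0.11 did not pass (edgeR adjusted p = 0.0851).

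Acadl (chr1:66830839-66863277), the long-chain acyl-CoA dehydrogenase, was the other lower gene of fatty acid oxidation. It was at 38.4, 39.1, 34.1 and 42.2, at 57.3, 54.6 and 50.2, and at 37.4, 43.2, 27.4 and 19.2 CPM, so that c-FosWT DMM libraries exceeded all others and c-FosDCh DMM replicates 3 and 4 fell below all others. The log2 fold change between the DMM groups was -0.76 ± 0.22 (edgeR adjusted p = 0.0477). The very-long-chain enzyme Acadvl, which acts on overlapping substrates, was not lower, at 0.22 ± 0.17 (edgeR adjusted p = 0.350). Within the trifunctional protein, Hadha was at -0.23 ± 0.089 and Hadhb at 0.13 ± 0.21 (edgeR adjusted p = 0.0925 and 0.653). The other members above 0 were Suclg2, Hadh and Eci1, none of which passed.

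**Figure D2:**
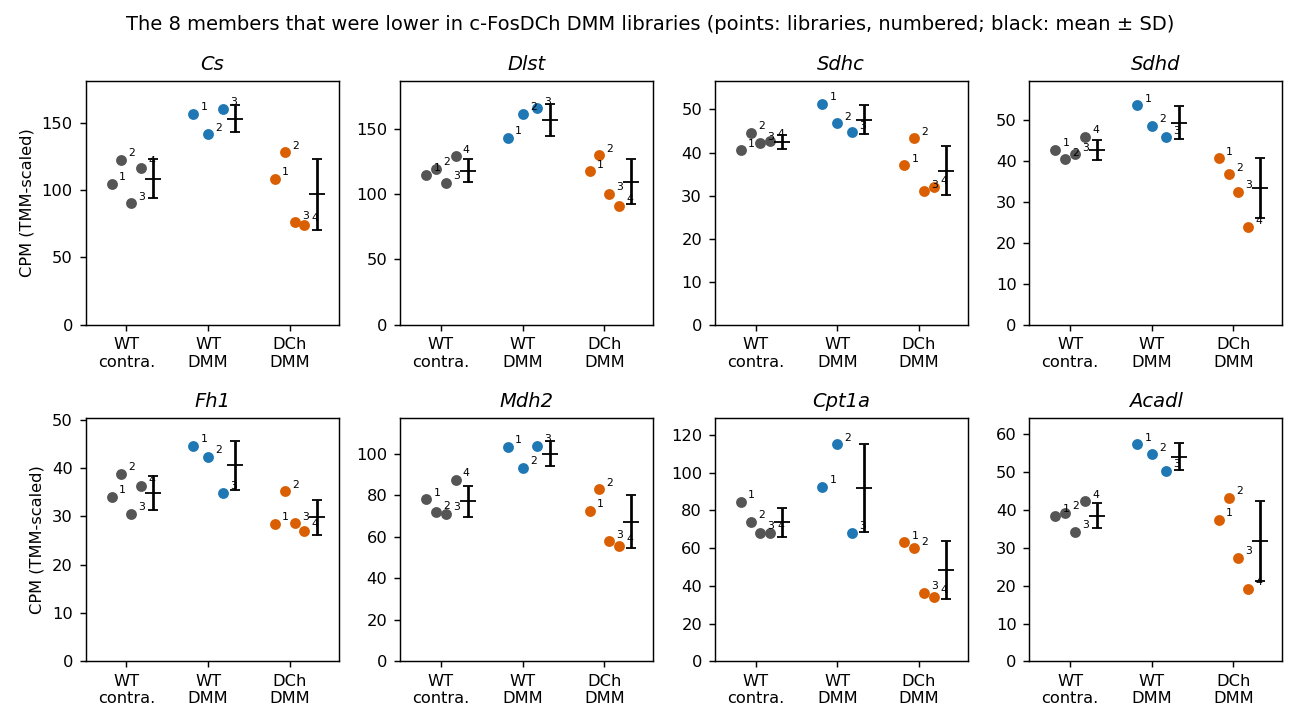
CPM (y axis, from 0) of the 8 members that were lower in c-FosDCh DMM than in c-FosWT DMM libraries, by group (x axis); numbered points are libraries and black bars mean ± SD. In 7 of the 8, Fh1 being the exception, all c-FosDCh DMM points lie below all c-FosWT DMM points, and in the same 7 replicates 3 and 4 are the lowest of all 11 libraries.

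Without regard to the test, 16 members (9 TCA cycle, 7 fatty acid oxidation) were lower in c-FosDCh DMM with no overlap between the DMM groups and 0 were higher; over all genes tested 15.8% were lower and 17.2% higher in that way. The calls depended on which libraries were in the fit. With contralateral replicate 4 left out 8 members were called, and with c-FosDCh DMM replicate 1 or 2 left out 9 were, while 836, 1857 and 1776 of all genes were called lower in these 3 fits. Leaving out contralateral replicate 1 or 2, c-FosWT DMM replicate 2 or 3, or c-FosDCh DMM replicate 3 or 4 left 0 members called, with 0 or 1 called among all genes as well. Leaving out contralateral replicate 3 or c-FosWT DMM replicate 1 left 1 member, although 290 and 618 of all genes were still called lower. The fold changes kept their sign each time: Cs ranged from -0.83 to -0.32 over 24 settings and Cpt1a from -1.12 to -0.59. DESeq2 called 15 members lower, among 2367 of all genes. Markers of other tissues moved with this comparison: all 14 erythroid markers were lower in c-FosDCh DMM (7 of them called), as were all 15 granulocyte and all 20 muscle markers (0 called). All 8 osteoclast markers were lower (4 called), as were all 9 macrophage, 7 endothelial, 10 adipocyte and 7 B cell markers (0 called). Osteoblast and osteocyte markers were mixed, with 5 above 0 (1 called higher) and 6 below. Fibroblast markers were mixed too, with 3 above 0 and 4 below (0 called). Of 19 cartilage markers 15 were above 0 and 7 called higher; the 4 below 0, none called, were Matn3 (-5.04 ± 1.67), Matn1 (-2.97 ± 1.13), Epyc (-1.87 ± 0.93) and Col9a1 (-1.37 ± 0.80). With the marrow score (defined below) as a covariate, Cs was at -0.32, Dlst at -0.25, Mdh2 at -0.28, Acadl at -0.28 and Cpt1a at -0.59, and with the muscle score they were at -0.59, -0.51, -0.55, -0.70 and -0.89; 0 members and 0 of all genes were called in either fit. With replicates 3 and 4 of the c-FosDCh DMM group left out, these 5 genes were at -0.38, -0.36, -0.38, -0.44 and -0.60, again with 0 members and 0 genes called.

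Within the c-FosWT genotype, DMM against contralateral cartilage showed slightly higher levels of most members and no called gene. All 35 members missed the threshold, as did all 18125 genes (edgeR, 0 called or 0.0%; lowest adjusted p 0.182). At an unadjusted p under 0.05 stood 4 members and 3605 of all genes. DESeq2 called 1 member higher (Dlst), where it called 2.29% of genes higher. The log2 fold change was above 0 for 17 of 18 TCA cycle and 13 of 17 fatty acid oxidation genes, with medians of 0.20 and 0.13 against -0.0097 over all genes. Marker genes moved with surgery too, none of them called: all 14 erythroid (median 1.65), 15 granulocyte (0.77) and 20 muscle markers (1.02) were above 0, and 16 of 19 cartilage markers were below 0 (median -0.82). This comparison shares its c-FosWT DMM libraries with the one between genotypes, so genes high in those 3 libraries are above 0 in one and below 0 in the other.

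The values of Cs, Dlst, Mdh2 and Acadl listed above show the c-FosWT DMM libraries above all contralateral ones, with log2 fold changes of 0.50 ± 0.19, 0.41 ± 0.13, 0.38 ± 0.15 and 0.49 ± 0.22 (edgeR adjusted p = 0.206, 0.182, 0.205 and 0.255). Groups did not overlap for 7 members, namely those 4 and Sdhc, Slc25a20 (0.26 ± 0.11) and Acaa2, the matrix thiolase, all of them higher in DMM. Over all genes tested 10.1% were higher and 13.1% lower without overlap. In 3 animals both knees can be compared directly: 12 members were higher in the DMM knee of all 3 (5 TCA cycle, 7 fatty acid oxidation) and Hadh was lower in all 3. Over all genes tested 21.8% were higher and 24.4% lower in all 3 pairs. Cs was higher by 0.58, 0.21 and 0.46 on the log2 scale within these animals, and Acadl by 0.58, 0.48 and 0.25. Cpt1a was higher by 0.13, 0.64 and 0.0065, mostly in 1 animal, beside a group difference of 0.32 ± 0.24 (edgeR adjusted p = 0.459).

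Further members among the 12 with the smallest p in this comparison were smaller in size. Ogdh, the dehydrogenase subunit of the 2-oxoglutarate complex, stood at 189, 222, 181 and 185 CPM, at 247, 201 and 221, and at 187, 204, 217 and 206 CPM, with overlapping groups and a log2 fold change of 0.20 ± 0.11. Cpt2 was at 14.1, 16.1, 16.2 and 17.3, at 19.4, 17.1 and 18.3, and at 14.3, 16.9, 16.5 and 12.2 CPM (0.20 ± 0.14). Etfdh, which passes electrons from the electron transfer flavoprotein to ubiquinone, was at 32.5, 33.4, 32.3 and 30.2, at 39.1, 35.1 and 32.4, and at 28.3, 33.0, 33.1 and 36.8 CPM (0.15 ± 0.11). Sdha was at 0.24 ± 0.11, Fh1 at 0.22 ± 0.13 and Idh3a at 0.29 ± 0.19, the last with c-FosWT DMM replicate 1, the library richest in muscle markers, well above its group. Hadh, the short-chain 3-hydroxyacyl-CoA dehydrogenase, was the one member of this set with a negative value, -0.33 ± 0.20; it was at 38.5, 39.3, 41.9 and 31.9, at 37.4, 27.7 and 25.5, and at 32.8, 34.8, 43.9 and 24.5 CPM. Pcx and Cpt1b were at 0.015 ± 0.19 and 0.23 ± 0.44. The edgeR adjusted p of these 9 genes lay between 0.265 and 0.970.

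**Figure D3:**
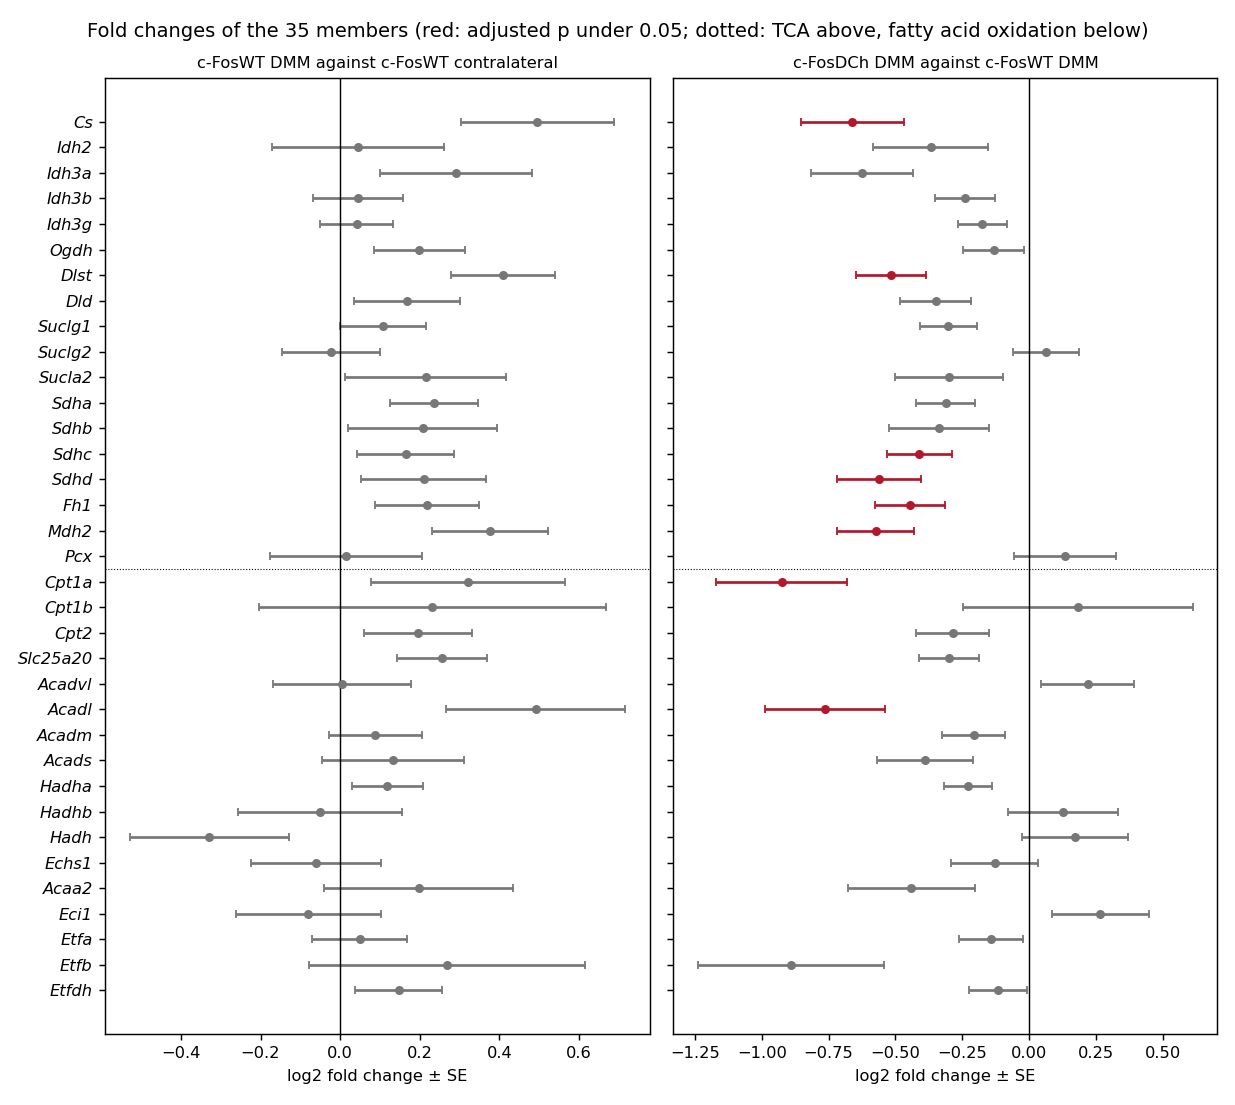
Log2 fold change ± SE (x axis) of each member (y axis) between c-FosWT DMM and contralateral libraries (left) and between c-FosDCh DMM and c-FosWT DMM libraries (right), with red for adjusted p under 0.05. On the left 30 of 35 points lie above 0 and none is red; on the right 28 lie below 0 and 8 are red.

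Between c-FosDCh DMM and contralateral c-FosWT libraries, which differ in both genotype and surgery, 0 members and 0 of 18125 genes were called (edgeR, 0.0%; lowest adjusted p 0.584; 2 members and 1512 genes at an unadjusted p under 0.05). The median was -0.17 over TCA cycle and -0.11 over fatty acid oxidation genes, with 27 of 35 members below 0 and -0.0024 over all genes. Cpt1a was at -0.60 ± 0.23 and Sdhd at -0.35 ± 0.15 (edgeR adjusted p = 0.584 for both); Cs was at -0.17 ± 0.18 and Mdh2 at -0.20 ± 0.14. Cpt1a, Suclg1 (-0.19 ± 0.10) and Idh3g (-0.13 ± 0.085) were lower without overlap and 0 members were higher, where 2.12% of all genes were lower and 2.28% higher in that way. Idh3g and Idh3b are the regulatory subunits of isocitrate dehydrogenase. Idh3g was at 56.5, 59.7, 54.0 and 59.3, at 66.7, 54.2 and 56.3, and at 51.2, 53.5, 52.0 and 52.6 CPM. Idh3b was at 52.4, 66.8, 55.8 and 54.9, at 66.8, 57.2 and 53.8, and at 54.3, 49.3, 48.5 and 48.8 CPM, a log2 fold change of -0.19 ± 0.10. The NADP-dependent isocitrate dehydrogenase Idh2, at 56.8, 55.5, 58.5 and 56.2, at 58.5, 53.6 and 63.6, and at 46.6, 64.8, 41.9 and 28.1 CPM, was spread widely within c-FosDCh DMM and gave -0.32 ± 0.20.

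Etfb, the beta subunit of the electron transfer flavoprotein, had the lowest log2 fold change in this comparison, -0.62 ± 0.33, on few counts: 6.58, 5.57, 6.44 and 9.47 CPM, 8.02, 6.36 and 11.01 CPM, and 6.28, 6.33, 3.07 and 2.54 CPM. Its 2 low values are c-FosDCh DMM replicates 3 and 4, while replicates 1 and 2 lay among the contralateral libraries. The short-chain dehydrogenase Acads, at 21.1, 22.8, 20.5 and 17.0, at 20.3, 21.6 and 25.1, and at 19.2, 19.9, 17.1 and 11.9 CPM, was at -0.26 ± 0.17. Sdhc was at -0.25 ± 0.11, Fh1 at -0.23 ± 0.12 and Idh3a at -0.33 ± 0.18, while Pcx (0.15 ± 0.18) and Cpt1b (0.41 ± 0.41) were above 0. The edgeR adjusted p of these 7 genes lay between 0.584 and 0.754. When replicates 3 and 4 of c-FosDCh DMM were left out, the TCA cycle median moved to -0.0035, and Cs and Mdh2 were at 0.14 and 0.03.

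The marker genes allowed each member to be followed against the RNA of other tissues within the groups. The marrow score of a library is its mean log2 CPM over the erythroid and granulocyte markers, and the muscle score the same over the skeletal muscle markers; neither contains a member. The marrow score was 7.18 ± 0.768 in contralateral (n = 4), 8.502 ± 0.399 in c-FosWT DMM (n = 3) and 6.37 ± 1.67 in c-FosDCh DMM libraries (n = 4), and the muscle score 4.70 ± 2.62, 5.85 ± 2.75 and 4.19 ± 1.42. With the groups held constant, 10 of 35 members rose with the marrow score (6 TCA cycle, 4 fatty acid oxidation) and 2 fell (edgeR adjusted p under 0.05), where 17.2% of all genes rose and 10.9% fell. The 10 were Cs, Idh2, Dlst, Sdhb, Sdhd, Mdh2, Acadl, Echs1, Acaa2 and Etfb; the 2 were Acadvl and Eci1. The c-FosDCh DMM replicate 4, at the lowest marrow score of 4.06, weighed on this: 2 members rose without it, 5 without replicate 2, and 0 rose or fell when replicates 3 and 4 were both left out. Among all genes 1919, 2485 and 707 rose in these 3 fits. Of the 2 that fell, 1 was called without contralateral replicate 1, 2, 3 or 4 or c-FosDCh DMM replicate 1 or 2, and 0 with scaling by library totals. Among all genes 990 to 1768 fell in these fits with a library left out, and 924 with library totals. With all libraries, markers outside the score moved with it too. All 9 macrophage and all 7 endothelial markers were called as rising. All 10 adipocyte slopes were above 0 (4 called), and 16 of 19 cartilage slopes were below 0 (4 called). The marrow score thus does not isolate marrow RNA.

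Among the members Etfb rose most with the marrow score, by 0.40 ± 0.082 on the log2 scale per unit of score (edgeR adjusted p = 0.00489). Acadl rose by 0.26 ± 0.051 (edgeR adjusted p = 0.00384), and without replicates 3 and 4 of c-FosDCh DMM by 0.086. Echs1, the enoyl-CoA hydratase, rose by 0.18 ± 0.040 (edgeR adjusted p = 0.00741); it was at 36.8, 35.5, 37.9 and 39.4, at 33.1, 33.0 and 41.4, and at 38.0, 36.7, 33.3 and 23.1 CPM, with c-FosDCh DMM replicate 4 far below the rest. Idh2 rose by 0.23 ± 0.058 and Sdhb by 0.19 ± 0.049 (edgeR adjusted p = 0.0144 for both); Sdhb was at 41.2, 44.9, 39.7 and 44.6, at 51.5, 42.6 and 53.4, and at 45.5, 49.8, 32.7 and 27.6 CPM. Of the genes lower between the DMM groups, Sdhd rose by 0.16 ± 0.042, Mdh2 by 0.14 ± 0.038 and Cs by 0.17 ± 0.056 per unit (edgeR adjusted p = 0.0137, 0.0178 and 0.0409). Cpt1a, at 0.18 ± 0.085, and Fh1, at 0.05 ± 0.051, did not pass (edgeR adjusted p = 0.133 and 0.513). Pcx was at -0.07 ± 0.077 and Cpt1b at 0.03 ± 0.20.

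Acadvl fell by 0.17 ± 0.043 per unit (edgeR adjusted p = 0.0121). It was at 56.6, 63.2, 51.7 and 42.9, at 60.6, 47.7 and 52.9, and at 53.1, 56.1, 60.0 and 81.1 CPM, so that the library with the least marrow signal held the highest value. The log2 ratio of Acadl to Acadvl CPM was -0.47 ± 0.301 in contralateral, 0.01 ± 0.158 in c-FosWT DMM and -1.02 ± 0.776 in c-FosDCh DMM libraries, where it ran from -0.38 in replicate 2 to -2.08 in replicate 4. That range spans the values of all contralateral libraries but replicate 4. The log2 ratio of Hadha to Hadhb was 1.66 ± 0.0939, 1.85 ± 0.225 and 1.51 ± 0.349, with overlap between all groups.

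**Figure D4:**
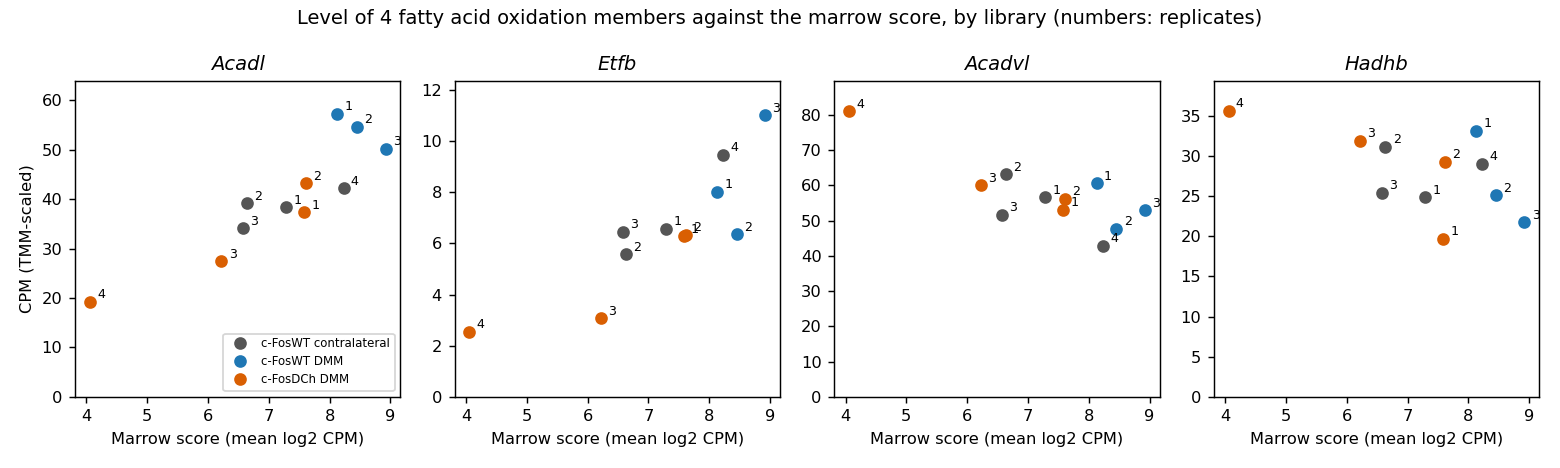
CPM (y axis, from 0) of Acadl, Etfb, Acadvl and Hadhb against the marrow score (x axis, mean log2 CPM) in the 11 libraries, coloured by group and numbered by replicate. Acadl and Etfb are lowest, and Acadvl and Hadhb highest, in c-FosDCh DMM replicate 4, the library with the lowest score of 4.06.

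With the muscle score 0 of 35 members were called (edgeR), where 0.949% of all genes rose and 0 fell, although 32 of 35 slopes were above 0. Sucla2 had the steepest, 0.11 ± 0.024 per unit (edgeR adjusted p = 0.119); it was at 36.2, 44.9, 31.6 and 34.0, at 57.3, 35.8 and 34.5, and at 34.4, 42.5, 31.4 and 30.1 CPM. Its 3 highest values are the 3 libraries with the highest muscle scores, c-FosWT DMM replicate 1, contralateral replicate 2 and c-FosDCh DMM replicate 2. Idh3a followed with 0.10 ± 0.024 (edgeR adjusted p = 0.170) and was highest in the first 2 of these. Hadhb, at 24.9, 31.2, 25.4 and 29.1, at 33.1, 25.1 and 21.7, and at 19.7, 29.3, 31.9 and 35.7 CPM, had a slope of 0.08 ± 0.034. Hadha was at 84.3, 97.4, 83.1 and 84.6, at 101, 93.6 and 89.9, and at 78.0, 82.9, 83.6 and 79.4 CPM, with a slope of 0.03 ± 0.016. The medium-chain dehydrogenase Acadm, at 35.5, 44.7, 37.3 and 34.96, at 42.2, 42.1 and 37.2, and at 33.8, 39.7, 34.7 and 32.2 CPM, had 0.04 ± 0.020. Dld, the lipoamide dehydrogenase subunit, at 45.2, 48.6, 42.7 and 51.6, at 62.8, 54.0 and 41.8, and at 38.8, 43.6, 40.3 and 43.3 CPM, had 0.06 ± 0.022. Fh1 had 0.06 ± 0.021, Ogdh 0.04 ± 0.020, Cs 0.05 ± 0.038, Cpt1a 0.02 ± 0.052, Pcx 0.0057 ± 0.039 and Cpt1b 0.01 ± 0.089. For Cpt1b, the muscle isoform, no relation to muscle markers was detectable at its depth.

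**Figure D5:**
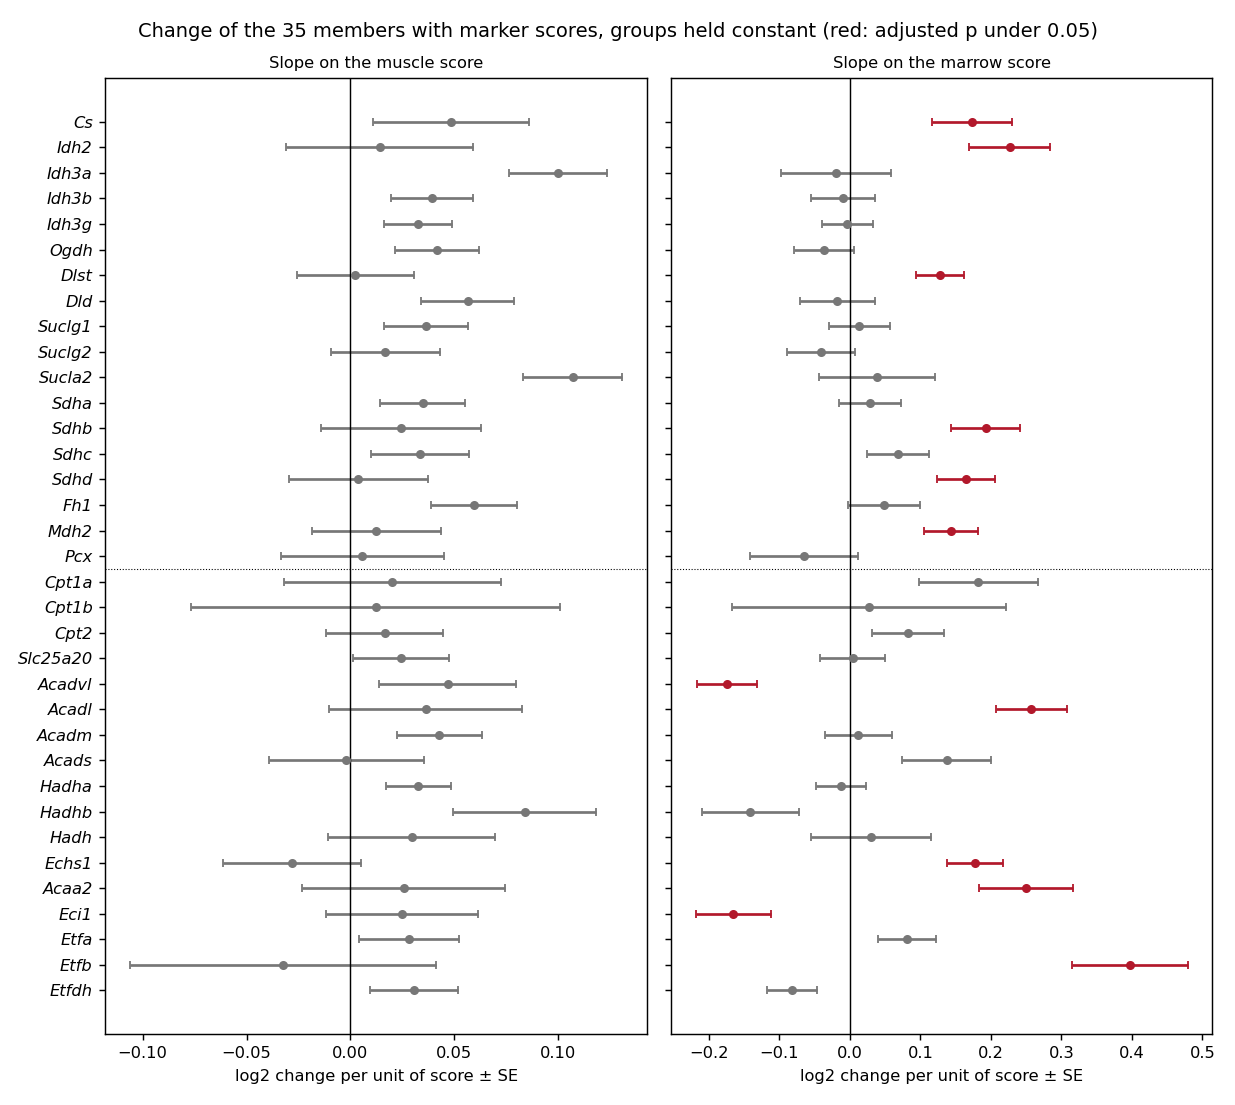
Log2 change ± SE per unit of the muscle score (left) and the marrow score (right), groups held constant, for each of the 35 members; red marks adjusted p under 0.05. On the left 32 slopes are above 0 and none is red; on the right 10 red points lie above 0 and 2, Acadvl and Eci1, below.

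Of the members without full values above, Suclg2 and Etfa varied little, from 11.6 to 15.5 CPM and from 35.3 to 46.7 CPM. Eci1, the enoyl-CoA isomerase, ranged from 13.2 to 23.7 CPM, and Acaa2 from 13.8 to 35.8 CPM with its lowest value in c-FosDCh DMM replicate 4. Over all members the highest library exceeded the lowest by 1.29 times (Hadha) to 4.44 times (Cpt1b). c-FosWT DMM replicate 1 held the highest value for 16 members and c-FosWT DMM replicate 3 for 7.

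Related genes were read in the same fit, where 3.79% of all genes were called lower and 10.6% higher between the DMM groups. Several fits with a library left out called 0 of all genes, so the calls below depend on the libraries too. Between the DMM groups, 5 of 21 nuclear genes of the respiratory chain were lower in c-FosDCh DMM and 0 higher, with a median of -0.41 and 20 of 21 below 0. Ndufa10 of complex I (33.7 ± 2.78, 39.6 ± 2.70 and 27.2 ± 1.79 CPM in contralateral, c-FosWT DMM and c-FosDCh DMM libraries) was at -0.54 ± 0.10, and the ATP synthase subunits Atp5b and Atp5a1 at -0.67 ± 0.14 and -0.50 ± 0.11 (edgeR adjusted p = 0.0332 for all 3). Of 15 glycolysis genes 3 were higher and 0 lower, with a median of 0.60: Eno1 (1.05 ± 0.25) and the phosphofructokinases Pfkl (1.59 ± 0.39) and Pfkp (1.59 ± 0.43). Their highest values were in c-FosDCh DMM replicates 3 and 4, at 357 and 437 CPM for Eno1. Of 16 other TCA-linked enzymes and carriers, the cytosolic malic enzyme Me1 was higher (1.90 ± 0.52) and the mitochondrial Me2 lower (-1.01 ± 0.26). Of 30 other genes of fatty acid uptake, activation and oxidation, 4 were higher and 0 lower: Cpt1c, the brain-type isoform that resides in the endoplasmic reticulum (30.0 ± 4.08, 16.7 ± 3.49 and 37.7 ± 8.29 CPM; 1.18 ± 0.21), Slc27a3, Acsl3 and the peroxisomal thiolase Acaa1a. Cpt1a and Cpt1c thus had fold changes of opposite sign.

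Of 15 transcriptional regulators of mitochondrial oxidation, Rxra, the shared partner of the PPARs, was higher (0.73 ± 0.20) and the host cell factor Hcfc1 lower (-0.67 ± 0.15). Ppargc1a, the coactivator PGC-1alpha, was at 0.752, 4.07, 1.43 and 1.28, at 4.57, 0.916 and 0.834, and at 0.438, 1.22, 1.06 and 0.715 CPM, highest in the 2 muscle-rich libraries, and did not pass (-1.27 ± 0.73, edgeR adjusted p = 0.208). Ppara, the nuclear receptor that activates fatty acid oxidation genes in liver and muscle, was at 0.59 ± 0.47 (edgeR adjusted p = 0.350). Between c-FosWT DMM and contralateral libraries 0 genes of these lists were called; the medians were 0.23 for the respiratory chain (20 of 21 above 0) and -0.36 for glycolysis. With the marrow score 7 of 21 respiratory chain genes rose and 7 of 15 glycolysis genes fell, where 17.2% of all genes rose and 10.9% fell. How far the marker genes' movement accounts for the fold changes of the members was not tested.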

How the data were processed

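Counts of reads per gene were deposited by the authors, 1 column per library. Per the submitters' processing notes the tools named are bcl2fastq 2.19.1.403, STAR 2.6.1a, RSEM and DESeq2 1.22.2, with genome GRCm38; the annotation release, and whether counting used strand, were not given in the sources used here. Of 55421 gene identifiers 55240 matched GENCODE M21, which supplied symbols and coordinates. The 35 members and all gene lists were chosen with earlier results of these data known.

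All 11 libraries (3 groups, no covariate) were fitted with edgeR 4.0.16 in R 4.3.3 (TMM, filterByExpr, robust quasi-likelihood; 18125 genes tested; Benjamini-Hochberg adjustment over all of them), which was tested on simulated data. Slopes came from the same fit with 1 score added. Log2 values use a prior count of 2. Alternatives were DESeq2 1.42.0, limma 3.58.1, other scalings and filters, score covariates, left-out libraries and the animal as a block. Group members were named by rule: the 12 with the smallest p in a comparison (8 for a slope) plus Cs, Pcx, Cpt1a and Cpt1b; Suclg2, Acaa2, Eci1, Etfa and the extra genes with values were named after their values were seen. Up to 4 called genes were named per related list, and Ppargc1a and Ppara always. The knees of the 3 animals did not deviate together (correlations -0.17, -0.18 and 0.25). Any 2 libraries of a group differed beyond counting noise.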

Additional observations from a re-analysis of the deposited data

Results flagged for a closer look

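In 62 groups of 4 libraries tested for a library far from its group, 3 values stood out, about the share of 1 in 20 that chance gives. Idh3b in c-FosDCh DMM replicate 1 was at 54.3 CPM against 48.5 to 49.3 CPM in the others. Slc25a20 in c-FosDCh DMM replicate 3 was at 14.5 CPM against 15.4 to 15.6 CPM. Hadha in contralateral replicate 2, a library rich in muscle markers, was at 97.4 CPM against 83.1 to 84.6 CPM; the part of muscle RNA in that value was not tested.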

How the results depend on the processing

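Between the DMM groups the 8 lower members kept their sign in all 24 settings, but not their calls. The count was 0 with the muscle, marrow or cartilage score as a covariate, with only the groups compared in the fit, without the 2 muscle-rich libraries, and without c-FosDCh DMM replicates 3 and 4, settings in which 0 of all genes were called. It was 3 with no filter on low counts, where 328 of 33766 genes tested were lower. With DESeq2 it was 15, where 2367 of 18618 genes were lower. It ranged from 0 to 9 when single libraries were left out, with 0 to 1857 of all genes lower. Scaling by library totals moved the medians of TCA cycle and fatty acid oxidation members to -0.50 and -0.38 in this comparison. Between c-FosDCh DMM and contralateral libraries it moved them to -0.33 and -0.27. The median of all genes moved in the same direction, to -0.18 and -0.17 in these 2 comparisons. Without c-FosDCh DMM replicates 3 and 4 the TCA cycle median against contralateral libraries was -0.0035, with Cs at 0.14 and Mdh2 at 0.031. Between c-FosWT DMM and contralateral libraries DESeq2 called 1 member higher. For the muscle score 1 member rose with the marrow score also in the fit, where 222 of 18125 genes rose. With DESeq2 2 members rose, where 252 of 24601 genes rose. When single libraries were left out 0 to 1 member rose, where 77 to 184 of all genes rose. For the marrow score 2 to 10 members rose and 1 to 2 fell when single libraries were left out. Among all genes 1919 to 3073 rose and 990 to 2077 fell in these fits. Without c-FosDCh DMM replicates 3 and 4, 0 members rose and 0 fell, beside 707 and 78 of all genes. With the muscle score in the fit, with no filter and without the muscle-rich libraries 1 member fell. Among all genes 1865, 1392 and 1768 fell in these fits. With library totals 0 members fell, beside 924 of all genes. The cause was not tested.

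Some values of named members changed sign. Pcx was at -0.042 between c-FosWT DMM and contralateral libraries with upper quartile scaling, at -0.0053 (marrow covariate) and -0.035 (library totals) between the DMM groups, and at -0.013 with library totals between c-FosDCh DMM and contralateral libraries. Cpt1a, at 0.32 after surgery, was at -0.018 with the cartilage covariate. Leaving out single libraries took Pcx from -0.094 to 0.15 and Cpt1b from -0.034 to 0.53 after surgery. It took the muscle slopes of Pcx from -0.060 to 0.038, of Cpt1a from -0.011 to 0.047 and of Cpt1b from -0.033 to 0.11, and the marrow slope of Cpt1b from -0.33 to 0.10. Without the muscle-rich libraries the muscle slopes of Pcx and Cpt1b were -0.084 and -0.18. Leaving out c-FosDCh DMM replicates 3 and 4 gave marrow slopes of Cpt1a and Cpt1b of -0.095 and -0.51; in that setting the slope of Acaa2, called as rising with all libraries, was -0.064.

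With the animal as a replicate block over the 3 paired animals, 0 members were called after surgery, with medians of 0.17 and 0.15. With the animal as a random replicate block in limma, 8 members and 1487 of 18125 genes were lower between the DMM groups. The consensus correlation of knees of an animal was 0.0012, and limma without the block also called 1487 genes lower. This fit therefore cannot show how the pairing bears on the calls. Each group had 3 or 4 libraries, and the common biological coefficient of variation over all genes tested was 0.315. Small fold changes can therefore be missed. The smallest detectable fold change of the members was not computed.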
